A study of Mus musculus with 12 samples.

Results

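Hepatocellular carcinoma (HCC) was compared with non-cancerous liver in mice whose survivin gene had been deleted. The comparison takes 6 of the 12 arrays of the series, chosen by their titles: 3 of HCC and 3 of liver, all from animals carrying the Mx-Cre transgene. The other 6 arrays, 3 of HCC and 3 of liver without the transgene and so with intact survivin, enter the same model, where they contribute to the slide term and the estimate of spread behind every standard error and p, and serve to ask whether the difference between tumour and liver depended on genotype. Every animal was a male of the 129/SV/B6 background, received N-nitrosodiethylamine (DEN), a liver carcinogen, at 50 mg per kg body weight when 2 weeks old, and received poly(IC) 8 months after DEN. Tissue was taken 1 week after poly(IC). By then 2 months had passed since each animal was irradiated and received transplanted marrow, so the wild-type controls shared the carcinogen, the poly(IC) and the transplant. RNA was hybridised to single-colour Agilent mouse arrays.

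Survivin, the product of Birc5, is a subunit of the chromosomal passenger complex, which with the kinase Aurora B corrects the attachment of chromosomes to the spindle and is needed to complete cell division. DEN damages the DNA of hepatocytes in young animals, and tumours of altered hepatocytes grow out months later. Mx-Cre places the recombinase under an interferon-inducible promoter: poly(IC), a mimic of double-stranded RNA, induces interferon, and Cre is then made in hepatocytes and in blood cells among others. The labels do not say which exons of Birc5 were flanked by recombination sites, whose marrow was transplanted, or whether a tumour and a liver of the same number came from 1 animal.

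Levels are given as log2 of the processed spot intensity relative to the array's own 75th percentile, so a level of 0 sits at that percentile, and levels of different genes are not compared. A change is the mean of the HCC arrays minus that of the liver arrays on this log2 scale, with its standard error after ±. Replicate 1 of each group lay on 1 slide and replicates 2 and 3 on another, and the slide was a term of the model. The 75th percentile of the processed signal was 1131 to 1766 on slide 1 and 3343 to 3906 on slide 2. Between 69.2% and 83.4% of spots were well above background, apart from 49.0% on wild-type liver replicate 1. The 2 sources of the data disagree on 1 array of the comparison. The column of the deposited value table named as deleted liver replicate 1 matched the scanner file of wild-type HCC replicate 1 (r = 1 over 55681 probes, against 0.964 with its own scanner file), and the column named as wild-type HCC replicate 1 matched the scanner file of deleted liver replicate 1. The labels do not settle which is right. The scanner files are the main reading, and the value for deleted liver replicate 1 under the value table's reading is given beside it as the exchanged value.

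Birc5 itself was measured by 3 probes, at chr11:117711112-117711171, chr11:117714057-117714116 and chr11:117716978-117717037 of the mm9 assembly, all above background on every array. On the last of these, the probe used for the gene, the HCC arrays stood at 0.06, 0.17 and -0.08 and the liver arrays at 2.42, -0.10 and -1.07, with an exchanged value of 0.80 for liver replicate 1. The tumours lay close together inside the wide range of the livers. The change was -0.37 ± 0.69 (limma adjusted p = 0.945) and turned to 0.17 with the 2 arrays exchanged and to 0.63 on slide 2 alone. An exact two-sided permutation test of 3 against 3 arrays gave p = 1 for the scanner files and p = 0.7 for the exchanged reading, where 0.1 is the smallest p this design allows. The probe at chr11:117711112-117711171 read -2.68, -2.56 and -2.93 in the tumours and -2.54 and -3.33 in liver replicates 2 and 3, whereas liver replicate 1 read -0.33, or -2.03 when exchanged. On that probe the wild-type arrays of slide 2 read -0.85 and 0.09 in HCC and -1.21 and -1.03 in liver, all above the 4 deleted arrays of that slide. The middle probe had the same order on slide 2, with -0.61, -0.99, -0.84 and -1.49 in deleted tissue against 0.57, 1.41, 0.25 and 0.29 in wild-type tissue. On slide 1 wild-type liver and wild-type HCC as scanned read -0.23 and -2.03 on the former probe. On the middle probe they read 0.76 and -0.57, beside 0.70 in deleted liver and -0.24 in deleted HCC. As scanned, the genotypes thus overlapped on all 3 probes. With the 2 arrays exchanged, every deleted array lay below every wild-type array on these 2 probes. On the probe used this held within each slide but not across the slides. Its wild-type arrays of slide 2 read 0.82 and 1.76 in HCC and 0.51 and 0.76 in liver, above the deleted arrays of that slide. On slide 1 its wild-type liver read 2.85. The exchanged 0.80 of deleted liver replicate 1 lay above both wild-type livers of slide 2. Whether any of the 3 probes lies in the deleted part is not given in the labels, so their levels are no measure of how complete the deletion was in tumour or liver.

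Across the table no gene passed. Of 26503 genes tested, 0 had a Benjamini-Hochberg adjusted p under 0.05 in limma, in either reading, and the smallest adjusted p was 0.108, for Lhx8. At an unadjusted p under 0.05 there were 464 genes higher in HCC (1.75%) and 697 lower (2.63%), together 1161 (4.38%). The HCC and liver arrays did not overlap for 590 genes higher in HCC (2.23%) and 596 lower (2.25%), and 407 (1.54%) and 478 (1.8%) were apart under both readings of liver replicate 1. With the 2 arrays exchanged the unadjusted counts were 763 higher (2.88%) and 1041 lower (3.93%), and the groups were apart for 797 genes higher (3.01%) and 805 lower (3.04%). The split between higher and lower moved with the scaling, to 583 and 542 under quantile normalization and to 703 and 380 when arrays were centred on their medians. A fit on the 6 deleted arrays alone gave 418 and 866. The median change of all genes was -0.04, with -0.21 on slide 1 (-0.18 exchanged) and 0.02 on slide 2. List medians of a single slide are to be read against these. For gene lists the count and median are given with the range found when each of the 6 arrays was left out in turn, written as the lowest and highest count with the array or arrays left out. Of all genes 44.2% were higher and 55.8% lower at any p. Every list count is to be read against these shares, also where they are not repeated beside it. With the 2 arrays exchanged these shares were 45.2% and 54.8%. Leaving out arrays took the share higher from 41.0% (without HCC replicate 2) to 51.5% (without liver replicate 1). What follows is therefore a description of levels, in which no difference between tumour and liver survived correction. The p-values measure the spread between these samples, which the labels do not name as separate animals.

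The 10 genes of smallest unadjusted p that were higher in HCC with the groups apart were Phlda2, Fam198a (now Gask1a), Pik3cd, Neil2, Snx30, Slc7a7, Ctsa, Alb, Dlgap4 and F11, and each had an adjusted p of 0.904. Phlda2, an imprinted gene that restrains growth of the placenta, was at -2.97, -2.24 and -2.44 in HCC and at -4.00, -4.42 and -4.00 in liver (exchanged -3.88), with its probe at chr7:150687464-150687523. Every tumour lay above every liver in both readings, and the change was 1.59 ± 0.27 (unadjusted p = 0.000175). Fam198a was at -0.80, -0.96 and -0.82 in HCC against -1.58, -2.83 and -2.82 in liver (exchanged -1.19), a change of 1.55 ± 0.43 in which the 3 tumours were nearly level and the livers spread. Pik3cd encodes the catalytic phosphoinositide 3-kinase subunit best known from white blood cells. On the probe used it was at 0.98, 1.82 and 2.44 in HCC and 0.79, 0.53 and 0.56 in liver (exchanged 0.13), so that tumour replicate 1 stood just above the livers and tumour replicates 2 and 3 well above them. That probe gave a change of 1.12. With all kept probes of Pik3cd averaged, the change was 0.56 (limma unadjusted p = 0.108). Neil2, a DNA glycosylase of base excision repair, was at -1.45, -1.16 and -1.61 in HCC and -2.29, -2.66 and -2.51 in liver (exchanged -2.87), with no overlap in either reading.

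The other higher genes differed less. Slc7a7, a transporter of basic amino acids, had a change of 0.77 ± 0.21, Ctsa, the lysosomal cathepsin A, 0.72 ± 0.20, and Snx30, a sorting nexin, 0.80 ± 0.19, and all 3 stayed apart with the arrays exchanged. Albumin (Alb), the main protein that hepatocytes secrete, was at 6.41, 7.09 and 7.11 in HCC and 6.06, 6.38 and 6.27 in liver. The exchanged value of 6.68 lay above that of tumour replicate 1, and the change went from 0.63 ± 0.17 to 0.43. Coagulation factor XI (F11) had a change of 0.54 ± 0.15 that became 0.37 when exchanged, and Dlgap4, a scaffold protein, 0.59 ± 0.17 that became 0.41, with overlap.

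The 10 lower genes were Usp49, Olfr1382, Lipo1 (now Lipo3), G0s2, Sh3rf2, Tmtc2, Lhx8, Sema3d, Lypd6 and Dmrt2. Among those measured above background in both groups, G0s2, which inhibits the lipase that breaks down stored triglyceride, was at -0.53, -0.76 and -0.14 in HCC and 0.73, 0.76 and 0.80 in liver (exchanged 0.55). The scanned livers were nearly level, every tumour was lower in both readings, and the change was -1.24 ± 0.31 (unadjusted p = 0.00281, adjusted p = 0.904). Lipo1, a member of the acid lipase family, was at -3.61, -2.48 and -3.10 in HCC and -2.32, -1.09 and -2.09 in liver (exchanged -2.33), a change of -1.23 ± 0.31. Tmtc2, a membrane protein of the endoplasmic reticulum, was at -0.47, -2.07 and -0.54 in HCC and 1.10, 0.10 and 0.62 in liver (exchanged -0.08). Its groups were apart in both readings, but the exchanged array brought the change from -1.63 ± 0.41 to -1.24. Usp49, a deubiquitinase, had a change of -0.59 ± 0.16 and overlapped when exchanged.

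Among the lower genes, 6 had no HCC array above background at the probe used. Lhx8, a LIM homeobox factor known from the developing forebrain, was at -5.75, -7.54 and -7.52 in HCC and -3.38, -5.62 and -5.15 in liver, and the exchanged value of -5.62 took its unadjusted p from 4.06e-06 to 0.075. Against the lowest signal that counts as above background on each array, Lhx8 was at least 1.85-fold higher in liver (1.1-fold exchanged), with measured means of -6.93 in HCC and -4.71 in liver. The same bound was at least 6.04-fold for Dmrt2, and 2.78-fold exchanged (means -7.17 in HCC, -3.08 in liver and -4.20 in liver exchanged), a factor of somite development. Dmrt2 was uneven among the livers, at -1.24, -6.66 and -1.35 (exchanged -4.60), so liver replicate 2 was nearly as low as the tumours. The bound was at least 1.5-fold for Sh3rf2 (means -6.72 and -5.09), at least 1.44-fold for Olfr1382 (means -5.69 and -4.98) and at least 1.34-fold for Sema3d (means -7.51 and -5.26). Exchanged, these bounds were 1.39-fold, 1.32-fold and 1.18-fold. Sema3d encodes a secreted semaphorin, and its tumours, at -6.91, -7.91 and -7.70, lay below its livers, at -4.88, -5.88 and -5.02 (exchanged -5.42). For Lypd6, a regulator of Wnt signalling, another probe was above background on a tumour array, so no bound is given. Its used probe read -7.13, -8.00 and -7.52 in HCC and -5.33, -5.71 and -3.06 in liver (exchanged -5.65), with liver replicate 3 well above the other livers. With no filter on dim probes another probe stands for Lypd6, and its change was -0.27 (unadjusted p = 0.39) in place of -2.85.

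**Figure D1:**
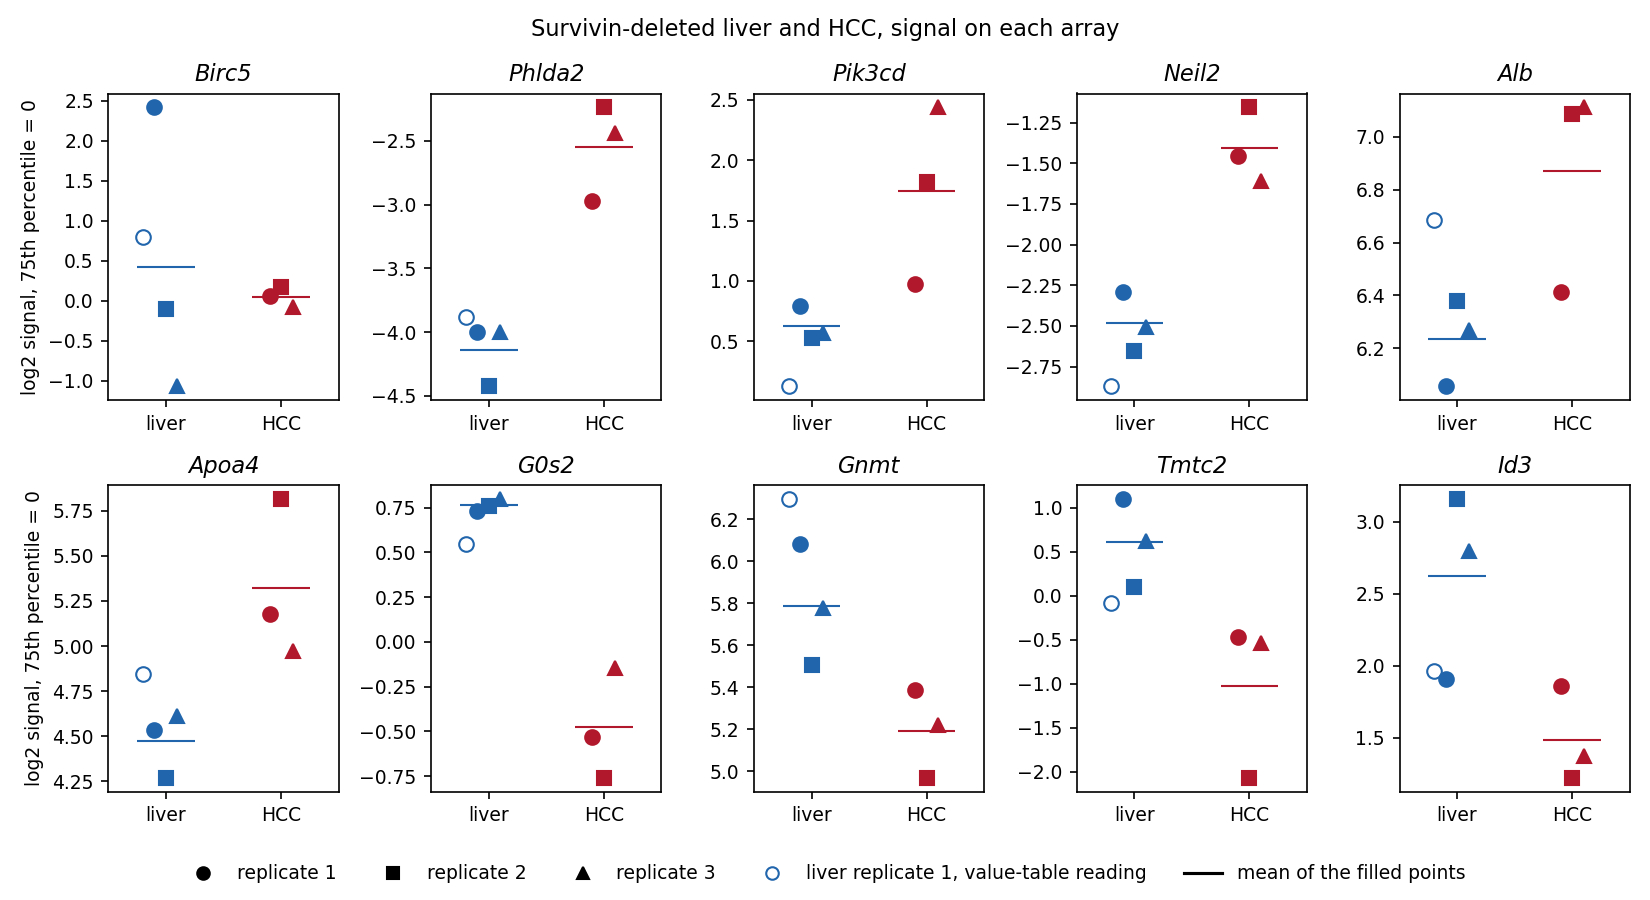
Level of 10 genes (log2 intensity relative to the array's 75th percentile) on each array of deleted HCC and deleted liver, with 1 point per array, a line at the mean of the scanned arrays, and an open circle for the exchanged value of liver replicate 1. Phlda2 and G0s2 separate the groups in both readings, whereas the Birc5 livers, from -1.07 to 2.42, span the tumours.

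None of these differences was shown to belong to the deleted genotype. The difference between genotypes in HCC minus liver gave 0 of 26503 genes past an adjusted p of 0.05 in limma, with a smallest adjusted p of 0.913 and 869 genes at an unadjusted p under 0.05 (3.28%). In wild-type tissue Phlda2 was at -3.88, -4.13 and -3.52 in HCC and -3.72, -2.72 and -3.09 in liver, overlapping, a wild-type change of -0.67 beside 1.59 in deleted tissue (unadjusted p of the difference = 0.000168, 0.000199 when exchanged). Neil2 had wild-type levels of -2.87, -2.19 and -3.11 in HCC and -1.47, -2.31 and -1.70 in liver, overlapping as well, and a change of -0.89 against 1.08 (unadjusted p of the difference = 0.000721). G0s2 had a wild-type change of -0.02 (unadjusted p of the difference = 0.0204), and Fam198a one of 0.31 (unadjusted p = 0.07). The exchange touches both terms here, because the array in question is wild-type HCC replicate 1 in the other reading. Wild-type changes and medians are those of the scanner files throughout.

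**Figure D2:**
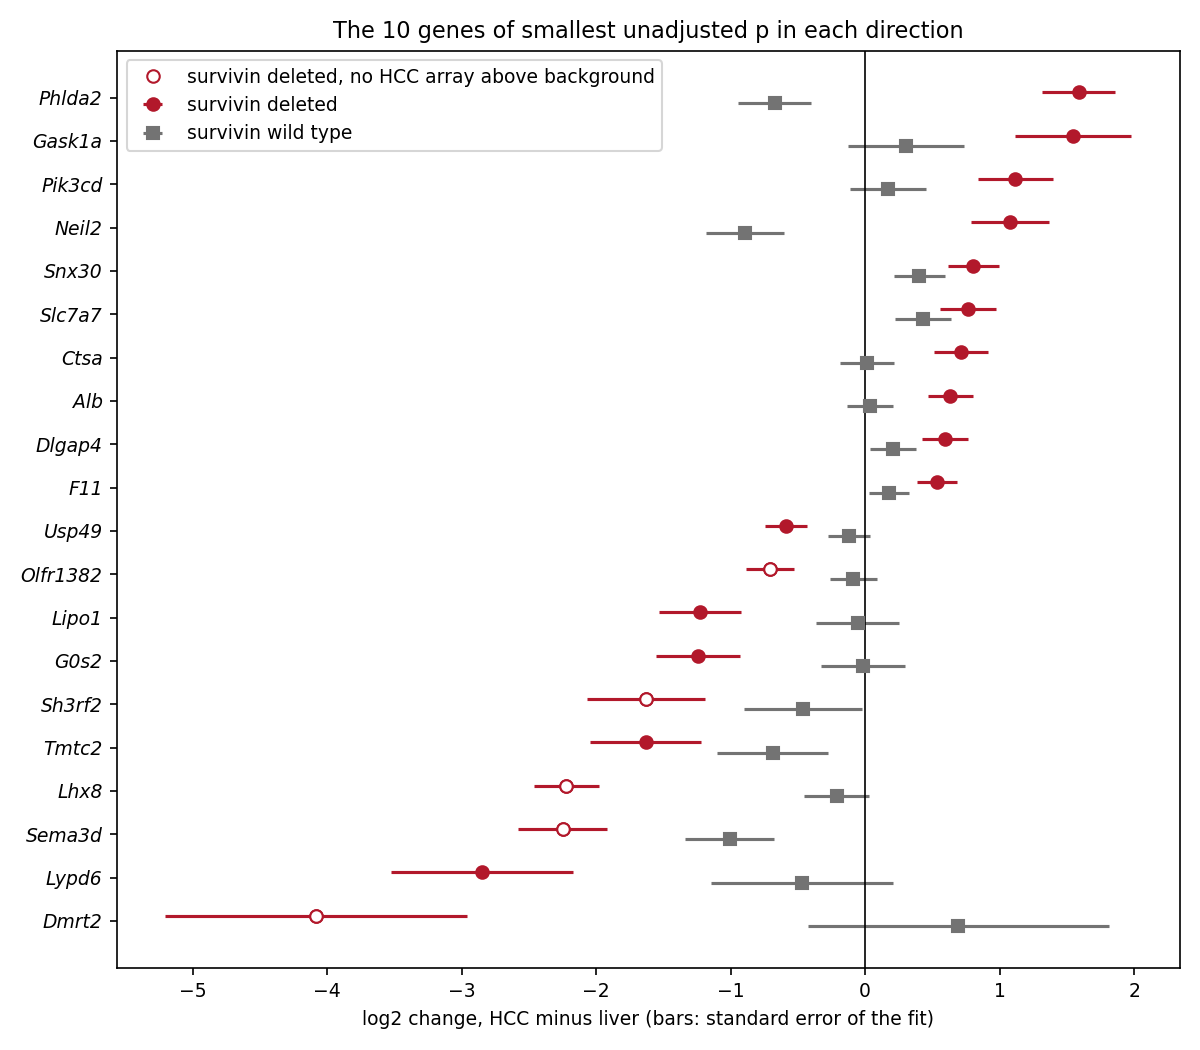
Change from liver to HCC (log2) for the 10 higher and 10 lower genes of smallest unadjusted p, in deleted tissue (circles) and in wild-type tissue (squares). Open circles mark genes with no deleted HCC array above background on any probe, and bars are standard errors. The genes were chosen on the deleted change, and the difference between the genotypes passed the adjusted threshold for none of them.

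Most cell-division genes were higher in the tumours on slide 2, while slide 1 depended on which array is taken as its liver. Mitosis genes are transcribed mainly in dividing cells. Of 31 measured mitosis and spindle genes, 27 were higher in HCC at any p, against 44.2% of all genes, with a median change of 0.32 (range 20 (without liver replicate 3) to 29 (without liver replicate 1), medians 0.13 to 0.71), and 0 of them had an unadjusted p under 0.05. With the 2 arrays exchanged, 29 were higher (45.2% of all genes), 10 of them at an unadjusted p under 0.05 against 2.88% of all genes, and the median was 0.50. Their median was 0.66 on slide 2 and -0.35 on slide 1, where the exchanged value was 0.12. Over all genes these medians were 0.02, -0.21 and -0.18. Of the 4 deleted arrays of slide 2, HCC replicate 3 was the highest for 22 of 31 of these genes (24.2% of all genes) and liver replicate 3 the lowest for 19 of 31 (25.7%). Mki67, the proliferation marker Ki-67, was at 2.31, 1.85 and 2.04 in HCC and 2.69, 1.40 and 1.13 in liver (exchanged 2.54), with liver replicate 1 the highest of the 6 in either reading. Pttg1, the securin that guards sister chromatids, was at -0.58, -0.69 and -0.99 in HCC and -2.21, -1.13 and -1.06 in liver (exchanged -2.12). Kif4, a chromosome-bound kinesin, was at -2.09, -2.29 and -1.93 in HCC and -2.37, -2.91 and -2.93 in liver (exchanged -2.80), and both genes were apart in either reading.

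Of 10 measured genes of the passenger complex and its regulators, Birc5 included, 8 were higher in HCC, with a median change of 0.26 (range 5 (without liver replicate 3) to 9 (without liver replicate 1 or HCC replicate 2), medians 0.10 to 0.45). The median was -0.07 on slide 1 (-0.21 for all genes) and 0.49 on slide 2 (0.02 for all genes). Aurkb, which encodes Aurora B, was at -1.98, -3.24 and -2.61 in HCC and -6.34, -3.98 and -3.92 in liver (exchanged -6.49), apart in both readings, with a change of 2.13 ± 0.80 (unadjusted p = 0.0242, adjusted p = 0.904). Only 2 of the 3 liver arrays were above background for it. The scaffold Incenp was at 0.86, -0.14 and -0.54 in HCC and 0.99, -0.77 and -0.89 in liver, and borealin (Cdca8) at 0.12, -0.74 and -0.62 and 0.87, -1.03 and -1.28, with the groups overlapping for both. Bub1, the kinase that marks centromeres for the complex, was at -1.93, -2.35 and -2.08 in HCC and -2.08, -2.72 and -3.23 in liver, apart with the exchanged value of -2.84. Of 30 measured replication genes 16 were higher (44.2% of all genes, range 12 (without liver replicate 2) to 21 (without liver replicate 1), medians -0.06 to 0.25). Rrm2, a subunit of ribonucleotide reductase, was at 0.65, 0.35 and 0.43 in HCC and 0.61, -0.54 and -0.33 in liver, and Mcm2, of the replicative helicase, at 0.63, 0.53 and 0.46 and 0.31, -0.04 and 0.03 (exchanged -0.36). Mcm2 was apart in both readings. Of 26 measured DNA damage repair genes 13 were higher, with a median change of 0.02 (range 9 (without liver replicate 2) to 17 (without liver replicate 1), medians -0.09 to 0.11).

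Hepatocyte markers were strongly present in every array, as the labels of both tissues require. Of 12 measured markers 6 were higher and 6 lower, and the mean level over the markers was 5.16, 4.92 and 5.18 in the tumours and 5.07, 5.03 and 5.11 in the livers. Of 43 measured secreted proteins, 28 were higher with the scanner files (range 22 (without liver replicate 1 or HCC replicate 3) to 32 (without HCC replicate 2), medians 0.01 to 0.13) and 17 with the arrays exchanged. Among them the lipoprotein component Apoa4 was at 5.18, 5.81 and 4.97 in HCC and 4.54, 4.27 and 4.61 in liver (exchanged 4.84), apart in both readings, with a change of 0.85 ± 0.27. The enzymes of amino acid breakdown, the urea cycle and gluconeogenesis, which hepatocytes near the portal vein make most, were lower in HCC for 25 of 31 measured genes (55.8% of all genes were lower) and for 30 of 31 with the arrays exchanged (54.8%). Their median was -0.39 in all, -0.53 on slide 2 (0.02 for all genes) and -0.02 on slide 1, where that of all genes was lower, at -0.21. The range over left-out arrays was 19 (without HCC replicate 2) to 29 (without liver replicate 1), medians -0.66 to -0.09. Gnmt, which consumes the methyl donor S-adenosylmethionine, was at 5.39, 4.97 and 5.22 in HCC and 6.08, 5.51 and 5.78 in liver (exchanged 6.30), with a change of -0.60 ± 0.22. G6pc, the last enzyme of glucose output, was at 2.96, 2.52 and 3.49 in HCC and 3.89, 3.77 and 4.03 in liver (exchanged 4.29). Both genes were lower in every tumour in either reading, and the wild-type changes were -0.61 for Gnmt and -0.52 for G6pc.

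HCC replicate 2 carried much of what was low in hepatocyte genes, as was seen after the values were known. Among the 4 deleted arrays of slide 2 it was the lowest for 28 of 31 periportal enzymes, 17 of 20 sulfo- and glucuronosyltransferases, 17 of 22 genes that male liver makes more of, and 18 of 25 hepatocyte transcription factors, against 8821 of 26472 genes in all (33.3%). Cyp2f2, a periportal P450, was at 0.99 there against 4.51 and 4.74 in the other tumours and 5.12, 4.69 and 4.83 in liver. Sds, serine dehydratase, was at -1.09 against 4.65 and 4.28 in the other tumours, which lay among the livers at 4.95, 4.68 and 3.99. C9, the last component of complement, was at -1.13 against 3.60 and 3.41 in the other tumours and 3.38, 3.24 and 3.52 in liver. The same array was the highest of the 4 for 8 of 9 MHC class II genes, 13 of 15 interferon-gamma GTPases and 19 of 22 T and NK cell markers, against 9019 of 26472 genes in all (34.1%). On the other side of these comparisons liver replicate 3 was the lowest for 9 of 9 MHC class II genes (25.7% of all genes), and liver replicate 2 for 13 of 15 GTPases and 14 of 22 T and NK cell markers (21.6% of all genes). In the hepatocyte lists liver replicate 3 was the highest for 13 of 20 sulfo- and glucuronosyltransferases and 15 of 22 male-biased genes (21.9% of all genes). It was the highest for 12 of 31 periportal enzymes and 7 of 25 hepatocyte transcription factors. Male-biased genes were lower in HCC for 18 of 22 measured members (55.8% of all genes, median -0.34, range 7 (without HCC replicate 2) to 19 (without liver replicate 1 or HCC replicate 1), medians -0.71 to 0.21). Without HCC replicate 2, 15650 of 26503 genes in all were lower. T and NK cell markers were higher for 18 of 22 with HCC replicate 2 (44.2% of all genes). Without that array they were higher for 8 of 22, near the 41.0% of all genes. In bulk tissue fewer cells of a type and less RNA per cell cannot be told apart, and whether this sample held fewer hepatocytes and more blood cells was not tested.

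**Figure D3:**
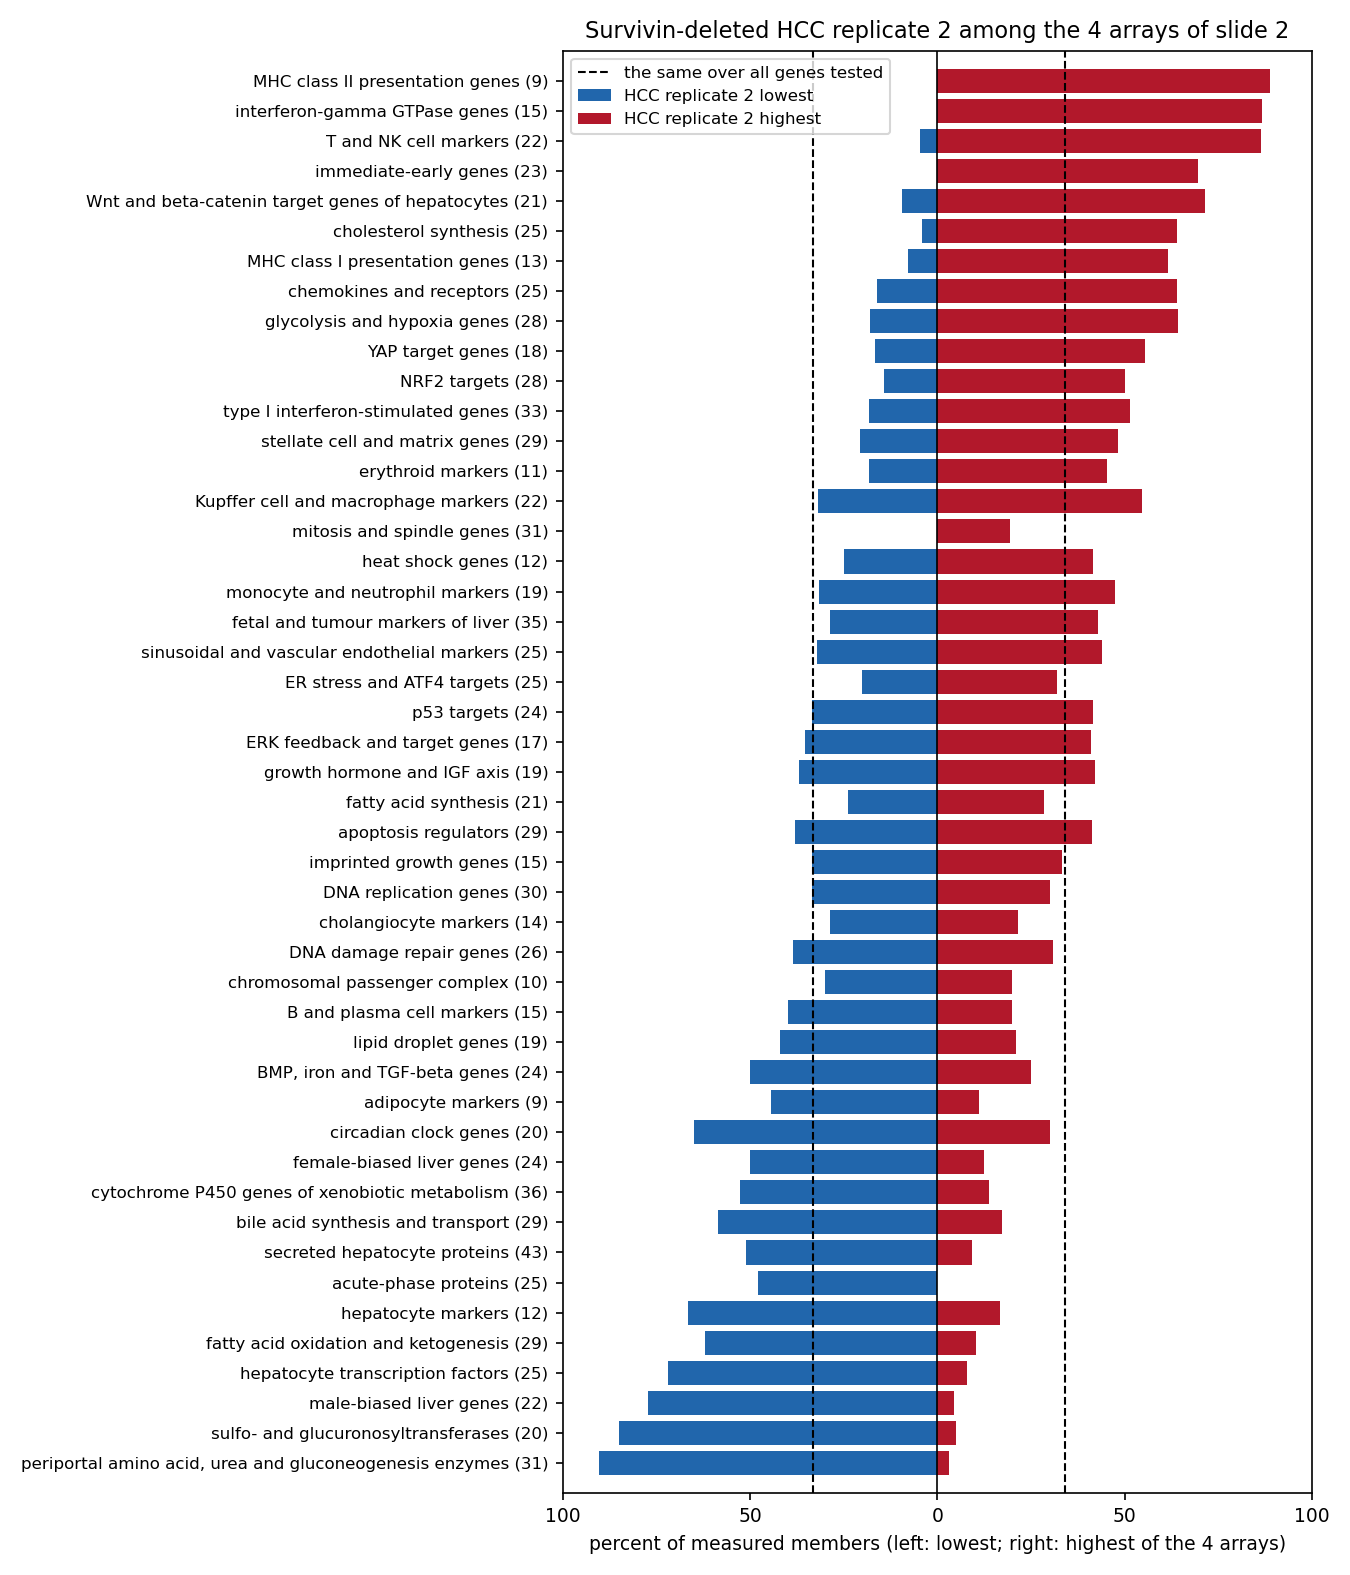
Share of each gene list (percent of measured members) for which deleted HCC replicate 2 was the lowest or the highest of the 4 deleted arrays on slide 2; the dashed lines are the same shares over all genes, 33.3% and 34.1%. Periportal enzymes stand at the low end and T and NK cell markers, MHC class II genes and interferon-gamma GTPases at the high end.

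Most cholesterol synthesis genes were higher in HCC, on both slides. Of 25 measured genes 22 were higher (44.2% of all genes), 23 with the arrays exchanged (45.2%), and the median change was 0.32 in all, 0.11 on slide 1, and 0.34 on slide 2 (range over left-out arrays 19 (without HCC replicate 2) to 24 (without HCC replicate 1), medians 0.22 to 0.51). In wild-type tissue the median was 0.14. Hmgcs1, the synthase that makes HMG-CoA, was at 4.03, 4.0 and 4.10 in HCC and 3.10, 3.78 and 3.85 in liver (exchanged 3.29), with a change of 0.47 ± 0.25. Idi1, which isomerises the isoprenoid building block, was at 3.16, 2.69 and 2.89 in HCC and 2.10, 2.57 and 2.53 in liver (exchanged 1.56). Stard4, a carrier of free cholesterol, was at 1.55, 1.61 and 1.37 in HCC and -0.82, 1.17 and 1.18 in liver (exchanged 0.66). These 3 genes were apart in both readings, and the change of Stard4 went from 1.00 ± 0.40 to 0.50 when exchanged. Sqle, squalene epoxidase, had the smallest unadjusted p of the list (0.0102, adjusted p = 0.904), with 3.53, 3.01 and 2.89 in HCC and 2.92, 2.50 and 2.46 in liver, where tumour replicate 3 stood just below liver replicate 1. The promoter of Hmgcs1 is shown for its match to the sterol-response word TCACNCCAC, in capitals, at position -137 from the start site (GRCm38.p6, RefSeq).
Hmgcs1, chr13:119690101-119690400, plus strand: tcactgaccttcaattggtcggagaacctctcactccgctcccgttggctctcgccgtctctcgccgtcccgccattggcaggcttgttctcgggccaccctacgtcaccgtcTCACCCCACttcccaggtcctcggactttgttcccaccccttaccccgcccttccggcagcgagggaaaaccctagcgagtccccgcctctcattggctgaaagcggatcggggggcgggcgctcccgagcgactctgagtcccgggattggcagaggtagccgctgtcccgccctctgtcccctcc
That word was in 1 of the 17 cholesterol genes with a promoter in the table, against 1.44% of all genes with a promoter of 300 bases, and CCAAT, on either strand, in 16 of 17 (94.1%), against 41.1%. A match of letters is no evidence of binding, and the 11 words searched and the promoters shown were chosen after the values were known.

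With all arrays, 15 of 19 measured lipid droplet genes were lower in HCC (55.8% of all genes), with a median change of -0.36 (range 12 (without liver replicate 3) to 16 (without liver replicate 2), medians -0.55 to -0.05). G0s2, described above, had the smallest unadjusted p among them. Plin5, a coat protein of droplets beside mitochondria, was at 1.20, 1.18 and 1.18 in HCC and 1.51, 1.89 and 1.81 in liver (exchanged 1.99): the tumours were level and all livers were higher. Cd36, a fatty acid importer, had a change of -1.03 ± 0.40, -1.20 in wild-type tissue, with overlap. Liver replicate 3, without which the list's median came nearest to 0, was the array that held adipose genes, as described further on. Without it 12 of 19 genes of the list were lower, beside 15303 of 26503 genes in all. The list's median of -0.05 was then no lower than the -0.06 of all genes. On slide 1, which does not hold that array, the list's median was -0.43 (exchanged -0.22), against -0.21 (exchanged -0.18) for all genes. How much of the lower level of the list rested on liver replicate 3 was not tested. Fatty acid synthesis genes were split, 12 of 21 measured being higher (range 8 (without HCC replicate 1) to 13 (without liver replicate 2), medians -0.04 to 0.08), although Me1, the malic enzyme that supplies reducing power, was at 0.68, 0.72 and 1.13 in HCC and 1.31, 1.54 and 2.17 in liver (exchanged 1.57) and so apart. Fatty acid oxidation genes were 13 of 29 higher (range 8 (without HCC replicate 3) to 18 (without HCC replicate 2), medians -0.18 to 0.09). Fgf21, a hormone of fasting and stress, was at -2.60, -3.36 and -6.37 in HCC and -5.39, -7.37 and -6.72 in liver, above background on 2 and 1 of these arrays, which leaves its change of 2.38 on dim signals. Bile acid synthesis and transport genes were lower for 23 of 29 measured members (55.8% of all genes, median -0.18, range 16 (without HCC replicate 1) to 24 (without HCC replicate 3), medians -0.29 to -0.07). The uptake transporter Slc10a2 went the other way, with 3.00, 2.36 and 2.28 in HCC, 2.37, 1.54 and 1.39 in liver and a change of 0.78 ± 0.25 (unadjusted p = 0.011), and with overlap.

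In the BMP and iron axis Id3 separated the groups and the hepcidin genes did not. BMP2 and BMP6 from the endothelium signal to hepatocytes, which respond with Id genes and with hepcidin, the hormone that limits iron uptake. Id3 was at 1.86, 1.22 and 1.37 in HCC and 1.91, 3.16 and 2.80 in liver (exchanged 1.96), barely apart on slide 1 and clearly on slide 2, with a change of -1.14 ± 0.32 (unadjusted p = 0.00527, adjusted p = 0.904). Bmp2 was at 0.89, -1.25 and -0.09 in HCC and 1.44, 0.18 and 0.76 in liver, overlapping, with a change of -0.94 ± 0.31 and of -0.99 in wild-type tissue. Hamp2, a hepcidin copy whose probe may share signal with Hamp, was at -3.23, -5.37 and -0.55 in HCC and -1.37, 0.95 and 1.21 in liver, and Hamp at 3.49, -0.01 and 3.50 and 2.16, 4.59 and 4.05. For both, tumour replicate 2 was the lowest array and the groups overlapped. Of 24 measured BMP, iron and TGF-beta genes 16 were lower (55.8% of all genes), with a median change of -0.10 (range 13 (without HCC replicate 2 or liver replicate 3) to 17 (without liver replicate 2), medians -0.18 to -0.01).

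Wnt target genes of hepatocytes near the central vein gave 12 of 21 measured members higher with the scanner files (range 5 (without HCC replicate 2) to 15 (without HCC replicate 1 or liver replicate 3 or HCC replicate 3), medians -0.27 to 0.29) and 17 with the arrays exchanged. With the scanner files their median was 0.04 in deleted tissue against -1.14 in wild-type tissue. With the arrays exchanged the deleted median was 0.34. The wild-type median was not taken in that reading, so 0.34 has no wild-type value to be set against. Glul, glutamine synthetase, was at 3.07, 3.71 and 2.49 in deleted HCC and 2.32, 2.71 and 3.05 in deleted liver (exchanged 1.36). In wild-type tissue Glul was at 1.36, 0.57 and 1.00 in HCC and 2.17, 1.70 and 2.58 in liver. Exchanged, wild-type HCC replicate 1 takes the value 2.32, which lies within the wild-type livers. The unadjusted p of the difference between genotypes was 0.0129 for Glul, 0.0187 for Lect2 and 0.0423 for Axin2, a feedback inhibitor of the pathway, and 0.0769, 0.0681 and 0.107 when exchanged. Cyp1a2 was at 4.52, 4.11 and 3.13 in deleted HCC and 4.40, 3.03 and 4.17 in deleted liver, with full overlap. With the scanner files it had a wild-type change of -3.11 (unadjusted p of the difference = 0.0155). Exchanged, its wild-type HCC replicate 1 takes the value 4.40, and the change in that reading is not given. No adjusted p of these differences was under 0.05. Rspo3, the endothelial amplifier of Wnt signals around the central vein, was at 0.55, -2.87 and -0.75 in deleted HCC and 1.13, -0.46 and 0.53 in deleted liver, a change of -1.43 ± 0.52 beside -1.92 in wild-type tissue.

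The best known markers by which such tumours are told from liver, Afp, Gpc3, Igf2 and Golm1, overlapped between the groups. Afp, alpha-fetoprotein, was at 3.03, 2.95 and 0.40 in HCC and 3.99, 1.19 and 0.86 in liver (exchanged 1.42), high in tumour replicates 1 and 2 and low in replicate 3. Gpc3, glypican-3, was at 2.33, -0.14 and 1.49 in HCC and 0.82, 0.94 and 1.62 in liver. The growth factor Igf2 ran from -2.73 in tumour replicate 1 to 3.68 in replicate 2, with the livers at 1.81, 0.10 and 0.95. Golm1 was at 3.10, 2.82 and 3.18 in HCC and 2.99, 2.61 and 2.01 in liver. Only Tspan8, a tetraspanin of epithelial tumours, was apart in both readings among the 35 measured fetal and tumour markers (1.54% of all genes were apart in both readings and higher, 1.8% lower), at 2.19, 2.40 and 2.43 in HCC and 1.24, 1.29 and 1.65 in liver (exchanged -0.33). Its wild-type change was 1.59 beside 0.94. In all 26 of 35 were higher, with a median change of 0.11 (range 22 (without liver replicate 2 or HCC replicate 2 or liver replicate 3 or HCC replicate 3) to 27 (without liver replicate 1), medians 0.10 to 0.32), and 31 with the arrays exchanged, with a median of 0.30. The median was -0.27 on slide 1, near the -0.21 of all genes there, and 0.40 on slide 2 (0.02 for all genes). Imprinted growth genes were lower for 11 of 15 measured members (55.8% of all genes, median -0.36, range 8 (without HCC replicate 1) to 14 (without HCC replicate 3), medians -0.56 to -0.13), among them Ndn, the growth suppressor necdin, at -3.66, -3.61 and -3.60 in HCC and -2.99, -3.59 and -2.18 in liver (exchanged -3.39). The Ndn tumours were level and every liver was higher in either reading, by little in liver replicate 2.

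Most interferon-induced genes were higher in the deleted tumours, and both tissues came from mice given poly(IC). Interferon-gamma induces GTPases of the Gbp and Irg families, which act against microbes inside cells, and type I interferon induces antiviral genes such as the Oas family. The interferon-stimulated response element is the DNA word through which both act in part. The promoters of 3 genes of these families described next are shown, read 5′ to 3′ in GRCm38.p6 coordinates from RefSeq, with matches on either strand to GAAA, any 2 bases and GAAA again, the core of that word, in capitals.
Gbp3, chr3:142559794-142560093, plus strand: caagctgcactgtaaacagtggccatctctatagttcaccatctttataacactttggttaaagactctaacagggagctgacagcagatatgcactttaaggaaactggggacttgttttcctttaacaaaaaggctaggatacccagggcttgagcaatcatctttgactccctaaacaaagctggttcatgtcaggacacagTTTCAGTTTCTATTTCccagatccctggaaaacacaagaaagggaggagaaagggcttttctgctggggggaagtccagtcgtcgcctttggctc
Gbp7, chr3:142530086-142530385, plus strand: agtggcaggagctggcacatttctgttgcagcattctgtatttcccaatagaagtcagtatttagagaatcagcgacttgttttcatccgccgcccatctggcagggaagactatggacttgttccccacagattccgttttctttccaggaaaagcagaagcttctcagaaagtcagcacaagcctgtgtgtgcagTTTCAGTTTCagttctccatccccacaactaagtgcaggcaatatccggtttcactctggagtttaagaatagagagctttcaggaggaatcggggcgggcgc
Oas1a, chr5:120907476-120907775, minus strand: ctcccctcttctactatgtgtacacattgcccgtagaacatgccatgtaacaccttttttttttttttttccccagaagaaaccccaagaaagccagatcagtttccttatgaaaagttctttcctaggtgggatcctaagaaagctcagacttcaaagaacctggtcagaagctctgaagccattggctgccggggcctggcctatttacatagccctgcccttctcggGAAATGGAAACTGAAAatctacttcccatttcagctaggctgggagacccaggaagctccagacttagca
In Gbp3 a pair of overlapping matches lay at -45 and -39 from the start site, in Gbp7 1 match at -53, and in Oas1a an overlapping pair at -20 and -14. The word was found in 8 of the 9 GTPase genes with a promoter in the table (88.9%) and in 15 of 24 type I genes (62.5%), against 3.99% of all 27025 genes with a promoter of 300 bases. A gene counts if any of its promoters holds the word. The gamma-activated site TTCNNNGAA was in 5 of 9 and 6 of 24, against 9.55% of all genes with a promoter. These are matches of letters only, as above.

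All 15 measured interferon-gamma GTPases were higher in HCC, in both readings, with a median change of 0.53 (0.80 exchanged) and a wild-type median of -0.33. Leaving out arrays gave a range of 12 (without HCC replicate 2) to 15 (without liver replicate 1 or liver replicate 3 or HCC replicate 3), medians 0.25 to 0.84. The unadjusted p was under 0.05 for 3 of them (1.75% of all genes), for 7 when exchanged (2.88% of all genes), and the adjusted p for 0. As scanned, the groups were apart for 0 of the 15 (2.23% of all genes were apart and higher). Gbp3 was at 1.60, 1.90 and 1.03 in HCC and 1.12, 0.34 and 1.01 in liver, where tumour replicate 3 was just below liver replicate 1, and the exchanged value of -0.06 set the groups apart. Its change was 0.69 ± 0.28 in deleted and -0.53 in wild-type tissue (unadjusted p of the difference = 0.0125, 0.04 exchanged). Gbp7 was at 2.28, 1.64 and 0.69 in HCC and 1.46, -0.20 and 0.78 in liver, with tumour replicate 3 below liver replicates 1 and 3 and a change of 0.86 ± 0.35. Gbp8 had a change of 1.33 ± 0.62, 1.87 when exchanged and then apart. The Gbp genes are close copies of one another, so their probes may share signal and are not separate evidence. Of 33 measured type I genes 25 were higher, 5 at an unadjusted p under 0.05 (1.75% of all genes), with a median of 0.23 (range 22 (without HCC replicate 2) to 27 (without HCC replicate 1 or liver replicate 3), medians 0.15 to 0.39). With the arrays exchanged 23 were higher (45.2% of all genes). Their median on slide 1 was 0.23, or -0.01 when exchanged. Apart in both readings were 0 higher (1.54% of all genes) and 1 lower (1.8%). Oas2 was at -0.16, -0.87 and -0.17 in HCC and -1.46, -1.47 and -1.39 in liver, apart until the exchanged value of -0.40, with a change of 1.04 ± 0.31 (unadjusted p = 0.00756). Oas1a was nearly level within each group, at 2.83, 2.82 and 2.77 in HCC and 2.32, 2.18 and 2.34 in liver, yet the exchanged value of 3.15 was the highest of all.

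Genes of immune cells varied most with HCC replicate 2 and with the choice of liver replicate 1. MHC class II genes, by which antigen is shown to helper T cells, were higher in HCC for 9 of 9 measured members, with medians of 1.08 on slide 2 and -0.81 on slide 1, or 0.14 when exchanged. The range over left-out arrays was 5 (without HCC replicate 2) to 9 (without liver replicate 1 or HCC replicate 1 or liver replicate 2), medians 0.04 to 0.91. H2-Aa was at 2.72, 3.69 and 2.75 in HCC and 3.85, 1.99 and 1.75 in liver (exchanged 2.01), so liver replicate 1 as scanned was the highest of the 6 and lay below the tumours when exchanged. Cd3g, a subunit of the T-cell receptor complex, was at -1.66, 0.56 and -0.65 in HCC and 0.00, -2.20 and -2.05 in liver (exchanged -1.94), where tumour replicate 2 and liver replicate 1 as scanned stood highest. The median change over the T and NK cell list was 0.34, and 0.72 when exchanged (range 8 (without HCC replicate 2) to 21 (without HCC replicate 1), medians -0.11 to 0.95). The log2 of their summed signal ran from 4.01 to 4.62 in the tumours and from 3.91 to 5.0 in the livers as scanned (4.0 for the exchanged array). Cxcl9, a chemokine that draws such cells, was at 4.36, 4.43 and 2.36 in HCC and 4.88, 0.07 and 0.75 in liver (exchanged 2.98), a change of 1.82 ± 0.85 with overlap, and of 2.45 when exchanged (unadjusted p = 0.006). The chemokine receptors Ccr2 and Cx3cr1, which mark monocytes, had changes of 0.91 ± 0.39 and 1.11 ± 0.55, and Ccr2 was apart in both readings. Of 26 measured chemokine and receptor genes 20 were higher, with a median of 0.40 (range 14 (without HCC replicate 2) to 22 (without liver replicate 2), medians 0.11 to 0.77).

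Other blood-cell lists were mixed. Of 15 measured B and plasma cell markers 10 were lower (55.8% of all genes, range 6 (without HCC replicate 1) to 12 (without HCC replicate 2), medians -0.55 to 0.04), but Cd22, a receptor of mature B cells, was at 3.73, 3.95 and 4.13 in HCC and 1.89, 3.62 and 3.63 in liver (exchanged 1.58), apart in both readings with a change of 0.89 ± 0.34. Macrophage markers were higher for 14 of 22 measured members (range 10 (without HCC replicate 2) to 15 (without liver replicate 1 or HCC replicate 1), medians -0.09 to 0.31), while the 3 genes that define resident Kupffer cells, Clec4f, Vsig4 and Timd4, were lowest in tumour replicate 2, at 0.13, -0.81 and -2.97 against livers of at least 2.86, 1.67 and -1.21. Monocyte and neutrophil markers were 12 of 19 higher (median 0.03, range 5 (without liver replicate 1 or HCC replicate 2) to 15 (without HCC replicate 1), medians -0.19 to 0.26) and 8 of 19 with the arrays exchanged (median -0.05). Erythroid markers were 9 of 11 higher (median 0.32, range 6 (without liver replicate 2) to 9 (without liver replicate 1 or HCC replicate 3), medians 0.11 to 0.68).

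In the stromal lists the direction turned with the arrays included, and single genes stood out. Timp1, an inhibitor of matrix proteases made by activated stellate cells among others, was at 3.27, 1.90 and 2.45 in HCC and 2.24, 1.20 and 0.68 in liver (exchanged 2.41). Its change was 1.17 ± 0.28 (unadjusted p = 0.0021, adjusted p = 0.904), and tumour replicate 2 was below liver replicate 1. The wild-type change was 2.19. Lrat, which stores vitamin A in resting stellate cells, was at -0.96, -1.59 and -0.83 in HCC and -0.68, -0.42 and -0.20 in liver (exchanged -0.71). Lum, a collagen-binding proteoglycan, was at -0.09, -0.11 and -0.13 in HCC and 0.09, 0.47 and 1.01 in liver (exchanged 0.57), and both were lower in every tumour in either reading. Of 29 measured stellate and matrix genes 18 were lower, near the 55.8% of all genes (median -0.09, range 11 (without HCC replicate 1) to 23 (without liver replicate 2), medians -0.48 to 0.15), and 14 with the arrays exchanged (54.8% of all genes). Of 25 endothelial markers 10 were lower (median 0.05, range 8 (without HCC replicate 3) to 15 (without liver replicate 2), medians -0.15 to 0.19). Of 14 measured bile duct markers 7 were higher and 7 lower (range of higher counts 5 (without HCC replicate 1 or liver replicate 2 or liver replicate 3 or HCC replicate 3) to 10 (without liver replicate 1), medians -0.18 to 0.16), with Muc1 apart at -4.91, -6.64 and -5.82 in HCC and -4.70, -4.64 and -4.62 in liver (exchanged -4.17). Muc1 was dim: in HCC replicates 2 and 3 it lay below the lowest signal above background on those arrays, -5.71 and -5.35. Pancreatic acinar markers were 5 of 8 higher (median 0.02, range 2 (without liver replicate 2) to 6 (without liver replicate 1), medians -0.23 to 0.21).

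Adipocyte markers set liver replicate 3 apart from the other arrays, as was also noticed after the values were known. All 9 measured markers were lower in HCC, with a median of -1.31 (range 6 (without liver replicate 3) to 9 (without HCC replicate 1 or liver replicate 2 or HCC replicate 2), medians -2.18 to -0.05). Adipoq, adiponectin, was at 0.23, 2.09 and 2.49 in HCC and 0.49, 2.57 and 4.54 in liver, and Cfd, adipsin, at -3.16, -5.39 and -3.25 and -3.39, -4.85 and 4.83. Ucp1, the uncoupling protein of brown fat, was at -5.15, -6.30 and -5.37 in HCC and -4.10, -6.10 and 2.07 in liver, and Cidec, a droplet protein shared by fat cells and fatty liver, at -1.63, -4.57 and -3.39 and -1.22, -3.59 and 2.38. In each case liver replicate 3 was the highest of the 6. Their part in the lipid droplet and fatty acid lists was not tested beyond leaving out that array.

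**Figure D4:**
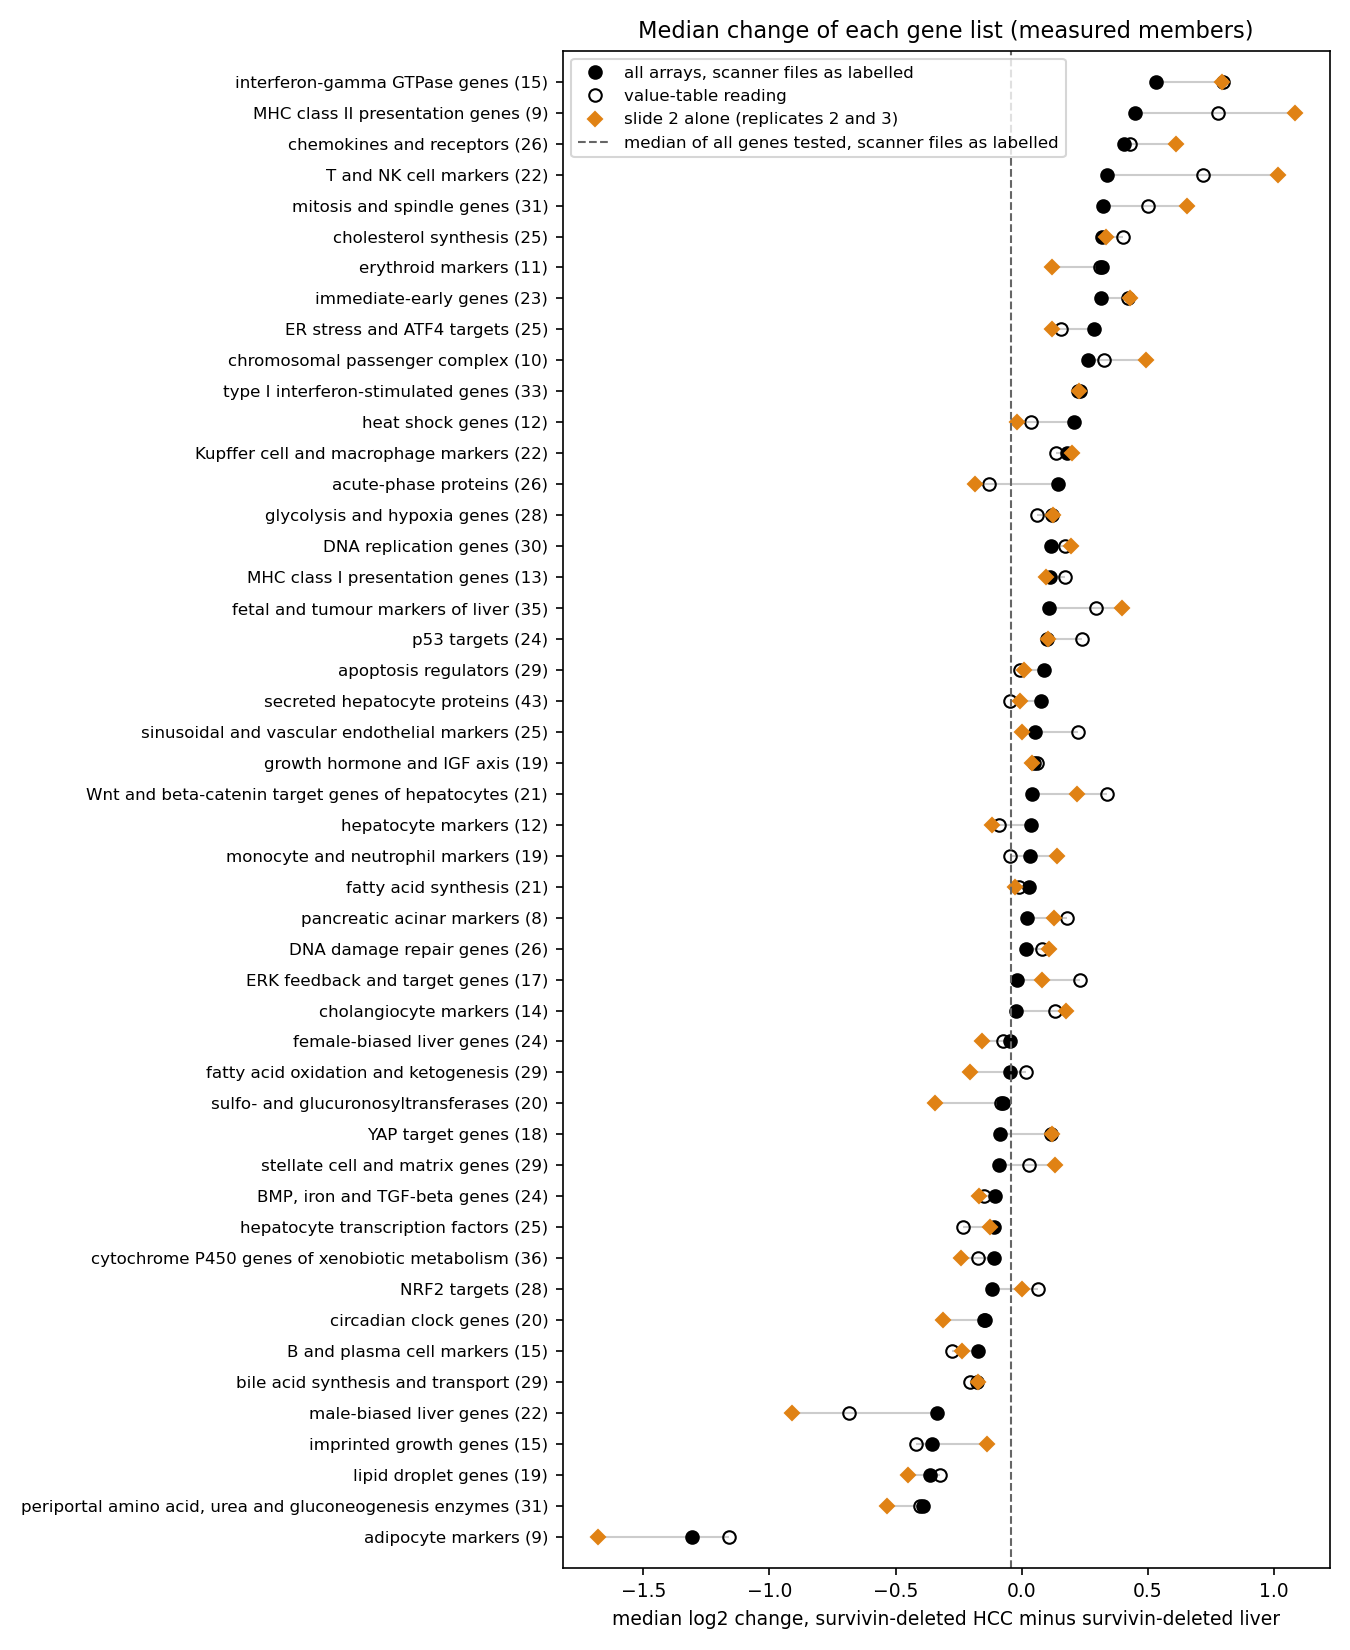
Median change from liver to HCC (log2) over the measured members of each gene list in deleted tissue (number of measured members in brackets), with the scanner files (filled circles), with the 2 arrays exchanged (open circles) and on slide 2 alone (diamonds). The dashed line is the median of all genes tested, -0.04. Interferon-gamma GTPases, from 0.53 to 0.80, and cholesterol synthesis genes lie above it in all 3, and periportal enzymes and lipid droplet genes below it.

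Most measured stress and early-response genes were higher. Of 23 immediate-early genes 18 were higher (median 0.31, range 12 (without HCC replicate 2 or liver replicate 3) to 20 (without liver replicate 1), medians 0.06 to 0.54). Egr2 was at -2.42, -1.12 and -2.52 in HCC and -2.80, -3.79 and -3.92 in liver (exchanged -2.74), apart in both readings with a change of 1.48 ± 0.47 (unadjusted p = 0.0109). Egr1, its close relative, was at 2.18, 1.37 and 1.49 in HCC and 1.78, 0.23 and 0.22 in liver, where liver replicate 1 overlapped the tumours. Of 25 measured ER stress and ATF4 targets 20 were higher (median 0.29, range 15 (without liver replicate 1) to 21 (without liver replicate 2), medians 0.22 to 0.29), and 15 with the arrays exchanged (median 0.16). Among 24 measured p53 targets 15 were higher (range 13 (without HCC replicate 2 or HCC replicate 3) to 15 (without liver replicate 1 or liver replicate 2 or liver replicate 3), medians 0.00 to 0.14). Plk2, a kinase of the stress response, was at 0.93, 1.13 and 1.17 in HCC and 0.22, 0.82 and 0.84 in liver (exchanged 0.64). Plk2 was apart in both readings, with a wild-type change of -0.32 (unadjusted p of the difference = 0.0129). Apoptosis regulators, the other family to which survivin is assigned, were 18 of 29 higher with the scanner files (44.2% of all genes, range 14 (without liver replicate 1) to 21 (without liver replicate 2), medians 0.00 to 0.14) and 14 with the arrays exchanged (45.2% of all genes). In the growth hormone axis Jak2, the receptor's kinase, was at 1.16, 1.02 and 0.64 in HCC and 0.50, 0.50 and 0.36 in liver (exchanged 0.83, within the tumours), and Igfals, which stabilises IGF in serum, at 1.81, -0.30 and 1.46 and 2.15, 1.84 and 2.01 (exchanged 2.98). Igfals was lower in every tumour in both readings, by most in tumour replicate 2.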

How the data were processed

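Single-colour Agilent arrays (12, in 4 groups of 3) were read as deposited. Per the file headers each scanner file holds 62976 spots with processed spot intensity, placed on mm9, and per the submitters' processing notes it was made with Agilent Feature Extraction 10.7. The deposited value table holds log2 values, which differed from the log2 intensity minus the array's 75th percentile by a constant near 0, with column medians of -3.27 to -2.51. It was used as an alternative.

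Here, log2 intensity minus each array's 75th percentile over non-control probes was computed, spots of a probe were averaged, and probes well above background on every array of at least 1 group were kept. The kept probe of highest mean stood for its gene. Group means and slide were fitted over all 12 arrays with limma 3.58.1 in R 4.3.3, tested on simulated data, with Benjamini-Hochberg adjustment over all 26503 genes. The number of arrays limits the precision. The exchanged and value-table fits used the genes and probes of the scanner reading, a choice made after a first look at the data.

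Same-numbered tumours and livers deviated together (r = 0.69, 0.28 and 0.54), which is taken from the data, since the labels do not state a pairing. Differently numbered arrays of slide 2 did so too (HCC 3 with liver 2, r = 0.51, and HCC 2 with liver 3, r = 0.22), so slide and number cannot be told apart for most of it. The exchanged reading gave same-numbered r = 0.72, 0.36 and 0.47.

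Genes named were Birc5, the 10 per direction of smallest unadjusted p with groups apart (clone-like names left out), up to 4 per list of smallest p, and those that define a cell type. Others from the 48 lists, such as Pttg1, Igfals, Afp, Sds and Glul, were named after their values were seen, as was the pattern of HCC replicate 2. All members and lists were chosen with earlier results of these data known. Of 1126 list entries, 1110 were on the array, 2 of them second names of a gene that were counted once. A fold given as "at least" compares the liver mean with the lowest signal well above background on each HCC array, or the probe's own signal where higher.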

Additional observations from a re-analysis of the deposited data

How the results depend on the processing

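In every setting tried, 0 genes passed an adjusted p of 0.05 in limma for HCC minus liver or for the difference between genotypes. The smallest adjusted p for HCC minus liver was 0.0641, without HCC replicate 3. The number of genes at an unadjusted p under 0.05 moved instead, and the causes were not tested. Higher genes, 464 with all arrays, numbered 90 with no slide term, 1401 on slide 2 only, 763 with the 2 arrays exchanged, 792 from the value table, 937 without both arrays in doubt and 703 with median centring. Leaving out 1 array at a time gave 286 (without liver replicate 3) to 838 (without HCC replicate 3), with 783 without liver replicate 1. Lower genes, 697 with all arrays, numbered 136 with no slide term, 1137 on slide 2 only, 380 with median centring and 413 when probes had to be above background on all 12 arrays. Leaving out 1 array at a time gave 418 (without liver replicate 3) to 1355 (without HCC replicate 3). The replicate number as a block in place of the slide gave 433 higher and 733 lower genes and changed no call (smallest adjusted p = 0.245). The change of Birc5, -0.37, reversed to 0.63 on slide 2 only, 0.17 with the arrays exchanged, 0.26 without both arrays in doubt and 0.18 in the value table. Leaving out 1 array at a time moved it from -0.95 (without liver replicate 3) to 0.44 (without liver replicate 1), with 0.15 without HCC replicate 1. The other 62 genes followed through the settings kept their sign throughout. Many of them were named for a small p or for groups apart on these same arrays, which favours a stable sign. Their stability is therefore no measure of how firm single genes are. The medians of 20 of the 48 lists kept their sign throughout.

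The limits are few arrays, 2 slides that differ in brightness, 1 liver array whose identity the sources give differently, arrays of both groups that stand apart in whole gene lists, and bulk tissue. Genes near background on the tumour arrays carry only a lower bound.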
